A study of Mus musculus with 2 samples.

Results

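The genes described here encode 10 proteins that mark the surface of emerging blood stem cells: Procr, Cd93, Cd48, Cd27, Ly6a, Ptprc, Spn, Cd34, Cd44 and Cd47. They were taken by symbol, and all 10 were found among the 24062 genes of the count tables. The tables come from 2 RNA libraries of mouse embryonic day 11 aorta, both from C57BL6 embryos and both from cells in the CD31+ KITint gate, which the labels call haematopoietic progenitor cells. Gata2Venus is a reporter in which the fluorescent protein Venus reports on Gata2, a transcription factor of blood stem cells. Cells without reporter signal gave the Gata2Venus-negative library, and cells with it gave the Gata2Venus-positive library. The labels do not say how many embryos were pooled or whether both sorts came from the same embryos. A reporter shows Venus signal, which need not equal the activity of the endogenous gene.

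In the embryonic aorta, haemogenic endothelial cells round up, form clusters on the vessel wall and become blood stem and progenitor cells. During this step endothelial surface proteins are joined by leukocyte surface proteins, of which CD41 (Itga2b), CD43 (Spn) and CD45 (Ptprc) are used to stage the cells. The endothelial protein C receptor (Procr) and the lectin-like receptor CD93, known in the mouse as AA4.1, mark stem cells of the fetus, whereas Sca-1 (Ly6a), CD27, CD34 and CD48 are combined to sort stem cells from their progeny. CD44 binds the matrix sugar hyaluronan, and CD47 protects cells from being engulfed by macrophages.

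Of the 10 genes, 5 were lower in the Gata2Venus-negative library, 0 were higher, 2 were not past the threshold and 3 had no count in either library. Cd48, Procr and Cd93 differed most, by 67.5-fold (with 3 counts set in place of 0), by 12.2-fold and by 8.77-fold. Cd47 and Ptprc differed by 3.24-fold and 2.83-fold, and Cd34 and Cd44 by 1.67-fold and 1.58-fold. Levels are in CPM, counts scaled to a common library size. A gene was taken as different when its higher library held at least 10 CPM and 50 counts, and when no value within the exact 95% interval of the ratio was under 2-fold. Among all 10381 genes with that many counts, 14.9% were lower by this rule and 15.2% were higher in the negative library. A library at 0 enters a fold with 3 counts in place of 0, and the exact interval can end nearer to equal expression than such a fold. With 1 library per group there was no test between conditions. Every ratio compares these libraries, and every interval covers counting error only and is too narrow where amplified reads are copies of one molecule. In sorted bulk RNA, fewer cells of a type and less RNA per cell cannot be told apart.

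The upstream sequences of 3 of these genes are shown because they span the range of responses: Procr and Cd48 were among the most reduced and Cd44 was the least changed of the genes with counts. Sequences are RefSeq promoters of GRCm38.p6, which held an entry for 8 of the 10 genes, all but Cd93 and Ly6a. Each is given 5′ to 3′ in the direction of the gene and ends before the first base that RefSeq or GENCODE annotates as transcribed from the gene there, and capitals mark 3 motifs on either strand: GATAA, a core read by GATA factors, then TGTGGT, read by RUNX factors, and finally GGAAG, read by ETS factors.
Procr promoter, chr2:155750967-155751116, plus strand: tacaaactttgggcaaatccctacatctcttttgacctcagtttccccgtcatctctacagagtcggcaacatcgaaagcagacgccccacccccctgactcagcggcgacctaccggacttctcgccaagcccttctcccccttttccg
Cd48 promoter, chr1:171681742-171681991, plus strand: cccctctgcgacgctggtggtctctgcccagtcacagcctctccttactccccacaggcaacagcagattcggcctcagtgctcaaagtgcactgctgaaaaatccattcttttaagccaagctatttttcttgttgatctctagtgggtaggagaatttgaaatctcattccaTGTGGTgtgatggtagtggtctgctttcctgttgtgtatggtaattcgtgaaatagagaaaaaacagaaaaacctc
Cd44 promoter, chr2:102901666-102901915, minus strand: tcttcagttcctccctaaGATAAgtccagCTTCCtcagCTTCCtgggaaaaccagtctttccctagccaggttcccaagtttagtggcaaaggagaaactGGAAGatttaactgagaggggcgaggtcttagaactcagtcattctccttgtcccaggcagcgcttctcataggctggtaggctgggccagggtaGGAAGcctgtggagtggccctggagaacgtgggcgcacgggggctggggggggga
In the 250 bases before the RefSeq starts, GATAA was found for 2 of the 8 genes, Ptprc and Cd44, against 22.6% of all 32851 promoter windows. TGTGGT was found for 1 gene, Cd48, at 76 bases before its start, against 14.0% of all windows, and it overlapped a match to CANNTG, the E-box. The letters GGAAG were present for 7 genes, all but Cd48, and in 64.1% of all windows, and CANNTG for 5 genes and in 66.2%. The Procr match to GGAAG lay 84 bases before the RefSeq start, within the stretch that is not printed. Both Ptprc matches to GATAA, at 99 and 24 bases before a RefSeq start, lay past the first base annotated as transcribed from the gene. Ptprc and Cd47 each have a pair of windows among the RefSeq promoters. A match in either was counted, whereas the shares of all promoters are per window. A match describes these letters and does not show a bound site.

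The libraries were first checked against their labels. They held 10135400 counts in genes for the negative and 9715131 for the positive library. Gata2 had 141 and 664 counts, the direction of the sort, and Pecam1, which encodes CD31, had 5593 and 4627. Kit, the other gate marker, had 2072 and 574 counts and was 3.28-fold higher in the negative library. Of 13 measured haematopoietic marker genes 7 had lower and 0 had higher levels without the reporter, with a sum of 318 against 839 CPM, and Gfi1 was at 0 in both. Runx1, needed for blood to emerge from endothelium, had 21 counts in the negative library, and Myb and Gfi1b had 0 there. None of the 12 endothelial markers was at 0 in either library, and 6 of them were lower in the negative library (summed levels 3080 and 5840 CPM). Markers of other lineages differed between the sorts as well. Macrophage markers were lower in 11 of 14 (266 and 1210 CPM, Timd4 at 0 in the negative library). Megakaryocyte markers were lower in 8 of 13 (117 and 569 CPM, Gp1bb and Gp5 at 0 there). Granulocyte and mast cell markers were lower in 4 of 6 (109 and 396 CPM) and erythroid markers in 4 of 9 (333 and 306 CPM). By the rule 0 genes of these lists were higher. Erythroid markers went both ways, however. The globin genes Hba-x (825 and 331 counts), Hbb-bh1 (1077 and 528) and Hbb-y (1485 and 812) had more counts in the negative library, though not past the rule. Of the lymphoid list only Cd79b was measured, and it was lower, with 0 and 161 counts (sum of the whole list 0.096 and 19.1 CPM). Mesenchymal markers were higher in 7 of 13 (7960 and 4960 CPM), and of 7 epithelial and neural markers 2 were higher and 1 lower (407 and 317 CPM).

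Procr, Cd93 and Cd48 formed the group with the widest gap. Procr (chromosome 2, 155751117 to 155755471, mm10) encodes a receptor that holds protein C on endothelium and is used to enrich stem cells. Its counts were 35 without and 389 with the reporter, or 3.36 CPM (interval 2.34 to 4.68) and 41.1 CPM (37.1 to 45.4). The log2 ratio of negative over positive was −3.61 (interval −4.16 to −3.11). Procr reached the minimum level through the positive library alone. Among genes with 10 to 50 CPM on average and more than 3 counts in both libraries, 95% of log2 ratios lay between −3.31 and 3.17, so Procr lay just outside that range.

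Cd93 (chromosome 2, 148436640 to 148443563) encodes a transmembrane receptor with a C-type lectin domain that is found on endothelium, fetal progenitors and myeloid cells. Its counts were 400 and 3187, which gave 38.4 CPM (34.7 to 42.4) and 337 CPM (325 to 349). The log2 ratio was −3.13 (interval −3.29 to −2.98). Of these 10 genes, Cd93 had the largest difference among those that reached the minimum level in both libraries. For genes with 50 to 200 CPM the central 95% of ratios ran from −1.70 to 1.97, and Cd93 was well below it.

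Cd48 (chromosome 1, 171682009 to 171705258) encodes a lipid-anchored protein of the SLAM family that adult stem cells lack and many of their progeny carry. No count was found in the negative library, which was taken to allow up to 3 counts or 0.288 CPM (the exact Poisson interval ends at 0.354 CPM), and 184 counts in the positive library gave 19.5 CPM (16.7 to 22.5). With 3 counts set in place of 0, the log2 ratio was −6.08, and the exact interval, which is wider, reached −5.76 or 54.4-fold at its end nearest to equal expression. Presence in one library alone was not rare in these data. At 0 in the negative library and with at least 100 counts in the positive were 279 genes, and 297 genes were so in the other direction.

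**Figure D1:**
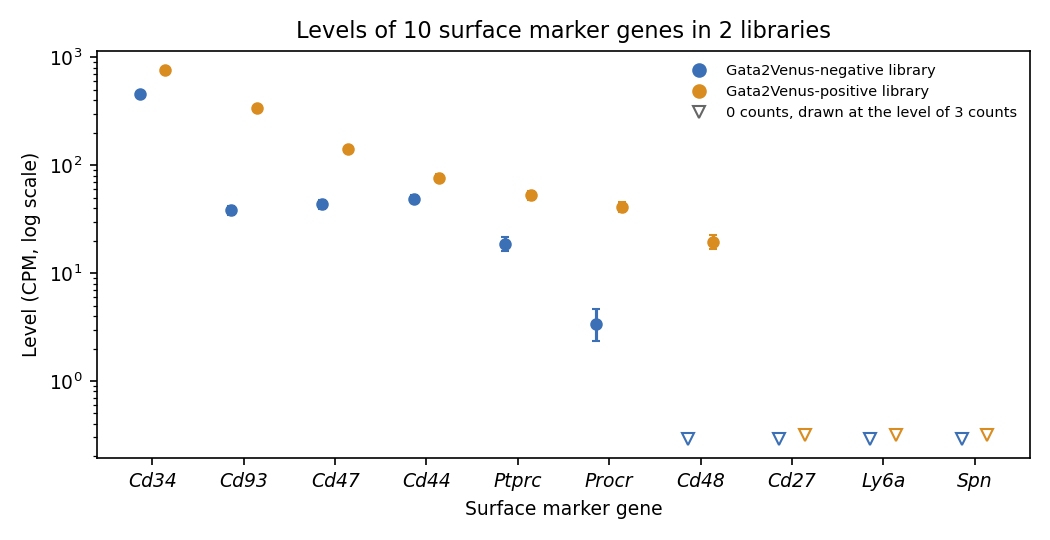
Level of each of the 10 genes in CPM on a log axis, with blue points for the Gata2Venus-negative and orange points for the Gata2Venus-positive library, bars for exact 95% Poisson intervals of counting error, and open triangles for 0 counts drawn at the level of 3 counts. For all 7 genes with counts the blue mark lies under the orange one, 5 of them past the rule of size, and the gap was widest for Cd48, Procr and Cd93.

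Ptprc and Cd47 were lower by smaller factors. Ptprc (chromosome 1, 138062861 to 138175708) encodes CD45, the receptor tyrosine phosphatase carried by nearly all white blood cells. The negative sort gave 194 counts of it and the positive sort 498, at 18.6 CPM (16.1 to 21.4) and 52.7 CPM (48.1 to 57.5), with a log2 ratio of −1.50 (interval −1.75 to −1.26). CD45 transcripts were thus present in both sorts. Cd47 (chromosome 16, 49800533 to 49915010), found on most cells, had 452 and 1332 counts, or 43.4 CPM (39.5 to 47.6) and 141 CPM (133 to 149), and its log2 ratio was −1.70 (interval −1.85 to −1.54). Both intervals lay beyond 2-fold on counting error. Against other genes at their level, however, Ptprc lay inside the central 95% of ratios given above for 10 to 50 CPM, and Cd47 lay at the lower edge of that for 50 to 200 CPM. Allowing a coefficient of variation of 0.4 between libraries, or asking for an interval beyond 4-fold, left Procr, Cd93 and Cd48 past the rule and ended the calls of Ptprc and Cd47. A minimum of 50 CPM instead removed Procr and Cd48.

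Cd34 and Cd44 differed least. Cd34 (chromosome 1, 194938819 to 194961279) encodes a sialomucin of endothelium and blood progenitors. Its counts were 4736 and 7177, or 455 CPM (442 to 468) and 759 CPM (741 to 777). The log2 ratio of −0.74 (interval −0.79 to −0.69) excluded equality on counting error but did not reach 2-fold, and it lay within the central 95% of genes at 200 to 1000 CPM (−1.08 to 1.09). Cd44 (chromosome 2, 102811141 to 102901665), the hyaluronan receptor, had 506 and 726 counts, or 48.6 CPM (44.5 to 53.0) and 76.8 CPM (71.3 to 82.6), with a log2 ratio of −0.66 (interval −0.83 to −0.49). Cd44 also lay inside the central 95% for its level, and neither gene was past the rule.

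**Figure D2:**
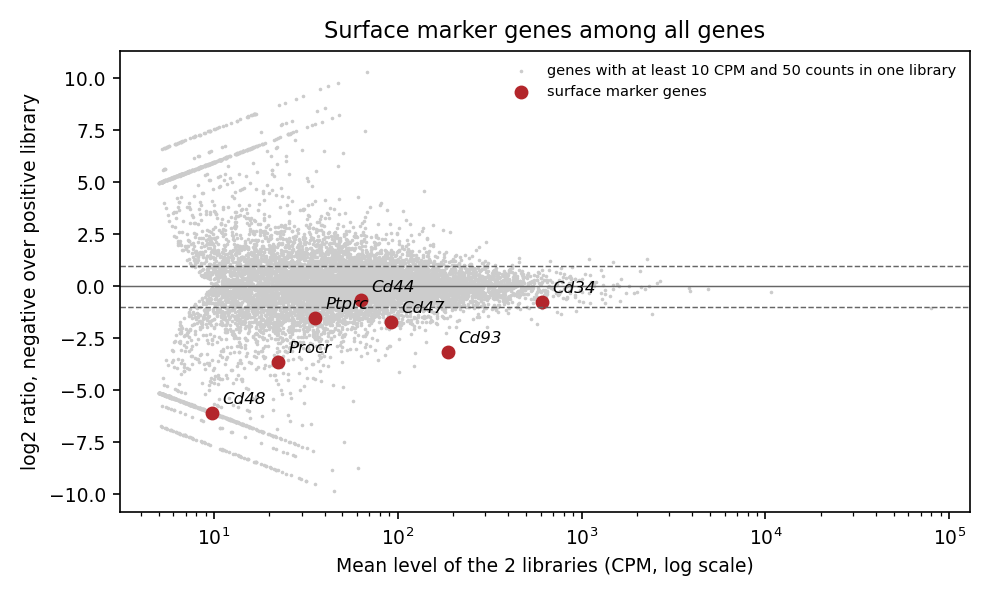
log2 ratio of the negative over the positive library against the mean level in CPM on a log axis, with a grey point for each of 10381 genes, red points for the 7 surface marker genes with counts, and dashed lines at 2-fold. The 7 red points lie below 0, with Cd93 at the lower edge of the cloud for its level and Cd34 and Cd44 above the lower dashed line; the slanted rows of grey points are genes with a few counts or 0 in one library, where 0 is drawn at 3 counts.

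No read was assigned to Cd27, Ly6a or Spn in either library. Cd27 (chromosome 6, 125232622 to 125237010) encodes a receptor of the TNF family, Ly6a (chromosome 15, 74994877 to 74998031) the lipid-anchored protein Sca-1, and Spn (chromosome 7, 127132232 to 127137823) the leukocyte sialomucin CD43. For each of them 3 counts would equal 0.288 CPM (negative) or 0.317 CPM (positive). A difference between the sorts was therefore not detectable at this depth. They were among 10209 genes (42.4% of the table) with no count in either library. Because reads that align to several places were left uncounted, the sequence shared with other genes was measured in GENCODE transcripts. For Ly6a, 19.0% of the 50-base windows of its transcripts also occurred in other genes, among them Ly6c1 and Ly6i. The share was 3.31% for Cd27 and 0% for Spn, so most windows of these 3 genes were found in no other annotated transcript. Genomic copies outside the annotation were not examined. Of the 7 genes with counts, Cd34 had the largest shared part at 2.14%, and exons of the antisense gene Gm16897 cover 2.03% of its exon bases.

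Over the 7 genes with counts the median log2 ratio was −1.70 with 3 counts in place of 0 for Cd48, and −1.60 over the 6 genes that had over 3 counts on either side. All 12544 genes with at least 20 counts had a median of −0.01, and 50.4% of them had a lower value in the negative library. Some marker lists of blood cells were also low, with medians of −1.45 (haematopoietic), −2.38 (macrophage) and −5.32 (megakaryocyte). Over genes above 3 counts in each library these were −1.37, −2.09 and −1.83. The erythroid list changed direction, with a median of −4.62 over 9 measured genes but 0.81 over the 4 genes above 3 counts in each library. The endothelial median was −1.04 and the mesenchymal median 1.31. Of the 10381 genes past the minimum level, 2.1% had a ratio as low as Cd48 with 3 counts in place of 0. Of the same genes 5.25% were as low as Procr, 5.78% as low as Cd93, 10.6% as low as Cd47 and 12.1% as low as Ptprc. As many as 24.0% lay as low as Cd34 and 26.1% as low as Cd44. The median of the surface marker genes includes Procr and Cd48, which reached the minimum level only where they were high.

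Levels of different genes were compared per kilobase of merged exons. In the positive library Cd34 was highest at 104 CPM per kilobase, followed by Cd93 at 50.5, Cd47 at 22.4, Procr at 20.3, Cd48 at 16.4, Cd44 at 11.3 and Ptprc at 2.88 CPM per kilobase. The counting intervals of Cd47 and Procr overlapped there, as did those of Procr and Cd48. In the negative library Cd34 was again first at 62.4 CPM per kilobase, but the next gene was Cd44 at 7.17, then Cd47 at 6.92, Cd93 at 5.75, Procr at 1.66 and Ptprc at 1.02 CPM per kilobase. Intervals overlapped there between Cd44 and Cd47, between Cd47 and Cd93, and between Procr and Ptprc. Cd44 thus stood second in the negative and sixth in the positive library, whereas Cd93 was behind Cd44 in the former and ahead of it in the latter. With the longest coding transcript as the length, Procr and Ptprc changed places in the negative library (2.11 and 3.67 CPM per kilobase), and the order in the positive library did not change.

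**Figure D3:**
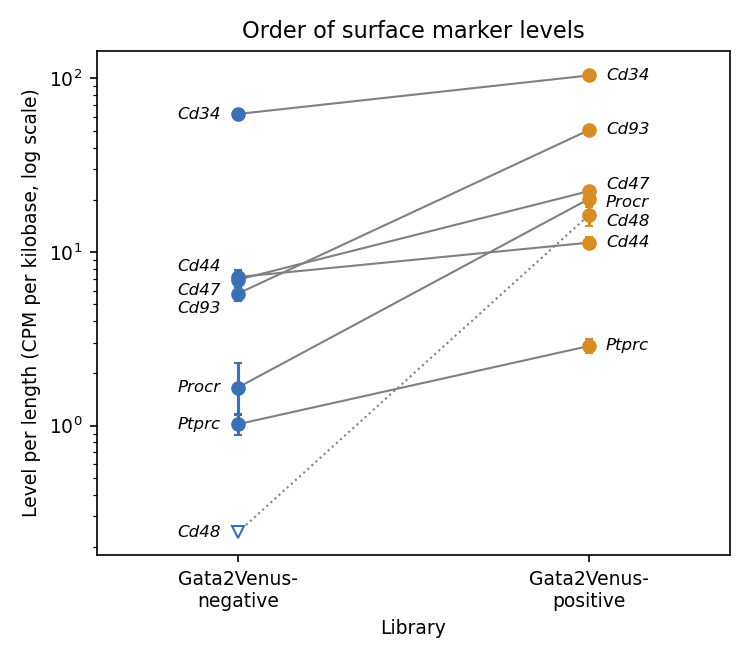
Level per length in CPM per kilobase of merged exons on a log axis for the 7 genes with counts, joined between the negative library at the left and the positive library at the right, with bars for exact 95% Poisson intervals and an open triangle for Cd48 at 3 counts. Lines of Cd47, Cd93, Procr and Cd48 rise past that of Cd44, which goes from second to sixth place.

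Ratios within a library do not depend on the scaling. Per 100 counts of Pecam1, the gate marker at a similar level in both libraries, Cd93 had 7.15 counts (negative) and 68.9 counts (positive). Procr had 0.626 and 8.41, and Cd48 0 and 3.98 counts on the same basis. Cd47 stood at 8.08 and 28.8 and Ptprc at 3.47 and 10.8 per 100 Pecam1 counts. Per 100 counts of Cd34, Cd44 had 10.7 and 10.1 counts, so the 2 genes kept nearly the same proportion. Cd47 kept a similar proportion to Ptprc, with 233 and 267 counts per 100 Ptprc counts. Procr and Cd93 were lower even against CD45 transcripts: per 100 Ptprc counts Procr stood at 18.0 without and 78.1 with the reporter, and Cd93 at 206 and 640. Cd34, by contrast, had 2441 and 1441 counts per 100 of Ptprc, higher in the negative library. Macrophages, megakaryocytes and endothelium carry several of these proteins, and 11 of 14, 8 of 13 and 6 of 12 of their markers were lower in the negative library, as given above, with Pecam1 among those not past the rule. Their part in these ratios was not tested.

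The ligands, partners and relatives of each protein were examined as lists, with a gene called measured at 20 counts over both libraries. Among all 12544 measured genes, 12.3% were lower and 12.6% were higher in the negative library by the same rule. Around Procr, the protein C pathway had 4 of 8 measured genes lower and 0 higher, with a median log2 ratio of −1.44, or −0.35 over the 7 genes above 3 counts in each library. Thbd, which encodes thrombomodulin, the partner of thrombin in protein C activation, had 119 and 777 counts and was 7.19-fold lower in the negative library. The thrombin receptor family genes F2rl2 (66 and 345 counts) and F2rl3 (16 and 145 counts) were 5.75-fold and 9.98-fold lower. F5, encoding coagulation factor V, had a log2 ratio of −6.84 (interval −12.16 to −4.33) from 1 and 104 counts. The main thrombin receptor gene F2r was not past the rule, at 432 and 332 CPM. Proc, the gene of protein C itself, which is made by liver, was at 0 in both.

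Relatives and ligands of CD93 went both ways, with 2 of 6 measured genes lower and 2 higher and a median of 0.88. Mmrn2, a matrix protein that binds CD93 on endothelial cells, was 3.38-fold lower in the negative library (771 and 2365 counts). Thbd, a lectin-like relative that also stands in the protein C list, was lower as given. Cd248, a relative of stromal cells and pericytes, had 1728 and 435 counts and was 3.61-fold higher. The ubiquitin ligase gene Cbl was 7.05-fold higher (1210 and 156 counts). Levels of the endothelial relative Clec14a, 146 and 86.6 CPM, did not pass the rule.

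No other SLAM family gene reached the minimum level of the rule. Of 11 genes 4 were measured, each in one library alone, with 0 lower and 0 higher by the rule. Slamf1, which encodes CD150, the receptor combined with CD48 to sort adult stem cells, was read 0 times without and 70 times with the reporter. The adaptor gene Sh2d1b1 had 0 and 27 counts. Cd84 had 72 and 0 counts, and Cd2, which encodes a receptor that binds CD48 in the mouse, 23 and 0. Cd244, the gene of the other CD48 receptor, was at 0 in both libraries. Genes of CD27 signalling were measured in 6 of 7 cases with 0 lower and 0 higher, of which 4 had the minimum level of the rule, and a median of 0.25. The most abundant were Siva1, at 65.1 and 60.5 CPM, and Traf2, at 39.3 and 48.7 CPM, and the ligand gene Cd70 was at 0 in both. In the Ly6 family 9 of 15 genes in the table were measured, again with 0 lower and 0 higher, but only 3 of them had the minimum level that the rule asks for. Their median was −0.34 over all 9, or 0.12 over the 5 genes above 3 counts in each library. Ly6e, a widely expressed relative of Ly6a, was at 112 and 164 CPM, and Cd59a, which encodes a complement inhibitor, at 35.6 and 45.3 CPM. Ly6c1, which shares sequence with Ly6a, had 0 and 51 counts.

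Partners and substrates of CD45 were split, with 3 of 13 measured genes lower and 2 higher and a median of −0.28. The kinase gene Src was 2.91-fold higher in the negative library (614 and 192 counts). Csk, the kinase that restrains Src kinases and is opposed by CD45, was 3.30-fold lower (191 and 573 counts). Lgals3, a galectin gene, had 8 and 112 counts and was 15.4-fold lower. The kinase gene Lyn, named after its values were seen, was 2.75-fold lower (441 and 1103 counts).

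Among sialomucins and selectins, relatives of CD34 and CD43, 2 of 6 measured genes were lower without the reporter and 0 were higher. The median was −1.05, or −0.04 over the 4 genes above 3 counts in each library. Emcn, an endothelial sialomucin, was 3.52-fold lower (253 and 893 CPM). Gcnt1, an enzyme that branches the sugar chains of CD43 and of selectin ligands, had 0 and 250 counts. It was 91.7-fold lower with 3 counts in place of 0, and the exact interval of its log2 ratio ended at −6.21. Podxl, which encodes the CD34 relative podocalyxin, had 201 and 175 CPM and did not pass the rule. Selp and Sele, the genes of P-selectin and E-selectin, and Selplg, that of their common ligand, were at 0 in both libraries.

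Of 16 measured genes of hyaluronan metabolism and CD44 partners 3 were higher and 1 was lower, with a median of −0.22, or 0.08 over the 13 with more than 3 counts in both libraries. Vcan, a hyaluronan-binding proteoglycan of loose connective tissue, was 9.05-fold higher in the negative library (2081 and 209 counts). Esrp1, a splicing factor that includes the variable exons of CD44 in epithelia, was 3.88-fold higher (303 and 71 counts), and Mmp14, a membrane protease that cleaves CD44, 2.20-fold higher (2014 and 830 counts). The hyaluronan receptor gene Stab2 of sinusoidal endothelium was 5.14-fold lower (206 and 962 counts). Msn, Rdx and Ezr, which link CD44 and CD43 to actin, had log2 ratios of −0.88, −0.52 and −0.71 and were not past the rule.

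CD47 partners had 2 of 8 measured genes lower and 1 higher, with a median of −0.62, or −0.82 over the 7 genes above 3 counts in each library. Thbs1, the thrombospondin that binds CD47, was 2.72-fold lower in the negative library (775 and 1917 counts). Itgb3, an integrin subunit that associates with CD47, was 2.35-fold lower (517 and 1105 counts). Thbs2, a relative of Thbs1, was read 915 times without and 0 times with the reporter. It was 277-fold higher without it when 3 counts stood in place of 0, and the exact interval of its log2 ratio began at 7.81. Sirpa, the receptor through which CD47 restrains macrophages, had 69.2 and 129 CPM, a log2 ratio of −0.89 (interval −1.03 to −0.76) that did not pass the rule.

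Of 26 other measured surface markers of emerging blood cells, 6 were lower and 2 higher without the reporter, and their median was −0.52. Adgrg1, encoding the adhesion receptor GPR56 of stem cells and listed under its older symbol, was 5.95-fold lower (232 and 1253 counts). Cd38 was 3.37-fold lower (558 and 1707 counts). Vcam1 had 225 and 0 counts and was 68.1-fold higher in the negative library with 3 counts in place of 0. The exact interval of its log2 ratio began at 5.78. Kit was the other gene that was higher. Itga2b, the gene of CD41, was at 45.9 and 90.6 CPM with a log2 ratio of −0.98 and not past the rule.

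**Figure D4:**
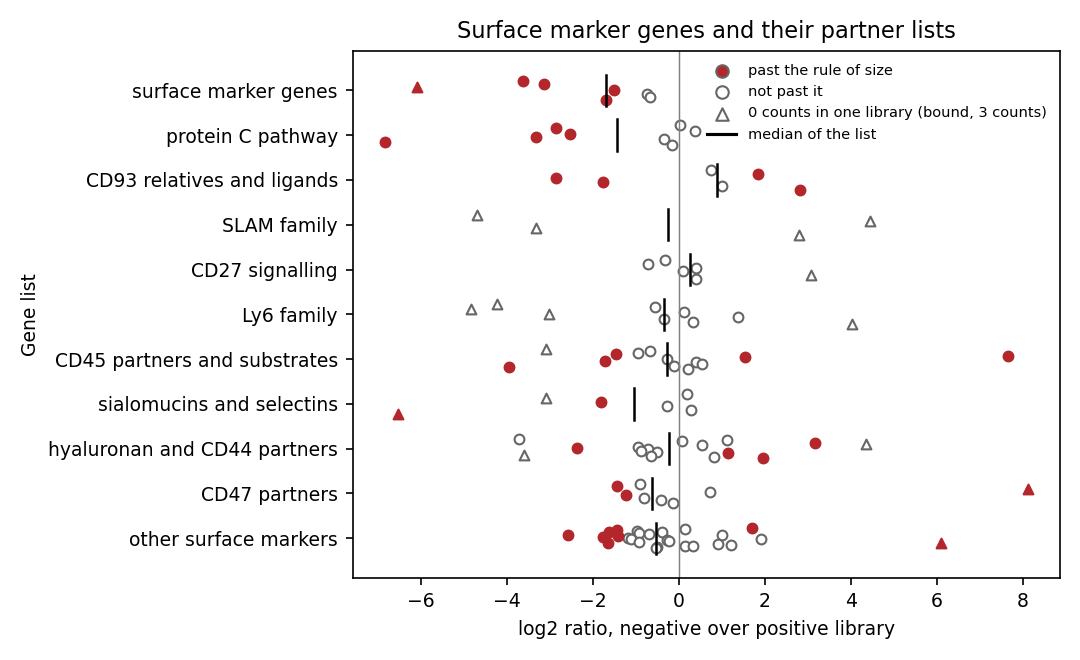
log2 ratios of the measured genes of each list, with red marks past the rule of size, open marks not past it, triangles for genes with 0 counts in one library, drawn with 3 counts there, and black bars for medians. The 7 surface marker genes all lie left of 0, with a median of −1.70, while the partner lists hold genes on both sides or have medians nearer to 0. The cell type marker lists, some with medians below −1.70, are not drawn.

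The genes nearest to each changed member in log2 level (with 0.5 CPM added) in both libraries were sought. Left out of the search were the members, predicted genes, and ribosomal protein, mitochondrial and small RNA genes. The 2 libraries give a pattern of only 2 values, so many genes lie close. Nearest to Cd93 were Hmox1, a heme-degrading enzyme gene (348 and 3157 counts), and the complement gene C1qb of macrophages (408 and 2331 counts), at distances of 0.199 and 0.451. Procr was nearest to Aldh3a2 and Dnajc16, Cd48 to Gsg1 and Zfp202, Ptprc to Sertad1 and Mettl17, and Cd47 to Mrpl3 and Yars2, all at distances of 0.203 or less.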

How the data were processed

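RNA was extracted with the mirVana kit, copied by the SMARTER protocol and sequenced on Illumina libraries, per the labels' protocols. TopHat, Cufflinks and HTSeq with build mm10 are named per the submitters' processing notes, without versions. No gene annotation or strand setting is given in the sources used here, and antisense reads cannot be told apart. No molecular identifiers are named. The deposited values are the authors' whole-number counts per gene, not normalized. Another 5 rows without a gene were left out, of which reads with several alignments were 45.5% and 48.2% of all counts in the negative and positive table.

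Counts were scaled by TMM factors of 1.03 and 0.974 (edgeR 4.0.16, R 4.3.3). Ratios have exact Clopper-Pearson and levels exact Poisson intervals (95%, scipy 1.17.1). A library at 0 enters a ratio with 3 counts. Lengths, positions and shared windows come from GENCODE vM21 for mm10, promoters from RefSeq. The partner lists named up to 4 genes past the rule with the interval farthest from equality, or the 2 most abundant where fewer than 2 passed; other genes were named for their role after values were seen, and 1 gene of the CD45 list is not reported here. Members and lists were chosen with earlier results of these data known. The rule was also run on simulated counts that held counting error only. That run cannot show how the rule behaves with spread between libraries. Alternatives were other scalings (total counts, DESeq2 1.42.0 size factors), filters, fold limits, thinning and an assumed spread between libraries.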

Additional observations from a re-analysis of the deposited data

How the results depend on the processing

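Scaling by total counts or DESeq2 size factors, no filter, a 2-fold ratio without an interval, and thinning the deeper library each left the same 5 genes lower and 0 higher. Dropping the filter or the interval only loosens the rule, so neither could end a call. Thinning was slight, from 10135400 to 9715131 counts. With a minimum of 50 CPM 3 genes were lower (Cd93, Ptprc, Cd47), beyond 4-fold 3, and with a coefficient of variation of 0.4 assumed between libraries 3 (Procr, Cd93 and Cd48 in both cases). Under that assumption the unchanged ratios of Ptprc (−1.50) and Cd47 (−1.70) were no longer past the rule. Of 28 recomputed ratios of single genes 26 kept their call and 0 reversed. These counts give little support. The scalings moved all genes by only 0.0775 (total counts) and 0.00479 (DESeq2) in log2, and the assumed spread leaves each ratio as it is. The smallest ratio was −0.66 (Cd44), and among the 5 genes the interval end nearest to equality was −1.26 (Ptprc). Scaling could thus neither reverse a ratio nor end a call. Over all genes, 2503 were lower and 2310 higher with no filter, 545 lower and 629 higher at 50 CPM, 751 and 744 beyond 4-fold, and 693 and 663 with the assumed spread, against 1545 and 1582. By coding transcript length, chosen after seeing the data, 2 genes changed places in the negative library. No paired analysis was possible because each group holds 1 library, and for the same reason no library could be left out. Depth limits Cd27, Ly6a and Spn to an upper bound.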
